A study of Mus musculus with 21 samples.

Results

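The genes described here are the machinery of synaptic vesicles and neurotransmitter release: 43 genes, found through every probe set whose platform gene symbol was a member. The list was drawn up by name, with earlier results of these data known. Its counts beside the shares of all genes therefore describe these data and do not test the list. They were covered by 103 of the 45101 probe sets of the Affymetrix Mouse Genome 430 2.0 array. Of the 43 genes, 38 had a probe set above the filter on dim values, a mean signal of about 15.5 over all arrays, and these were tested among 12367 genes. The other 5 were Syt5, Sv2c, Rab3b, Unc13b and Slc17a7, whose brightest probe sets had medians of 6.00 to 14.9 over the 21 arrays. The series holds RNA of mouse cerebellar tumour cells that were sorted by the surface carbohydrate CD15. Every conventional title names Patched, while the Math1-GFP titles do not; a Patched origin of those tumours rests on their descriptions alone. Tumours called conventional gave 6 samples of CD15 positive cells and 6 of CD15 negative cells, and tumours titled Math1-GFP gave 4 and 5, which makes 4 groups. Math1, also named Atoh1, marks granule neuron precursors as their transcription factor, and GFP is a fluorescent protein. The labels give no age, no treatment, no Patched allele and no description of how the reporter was used, and the descriptions of the 9 Math1-GFP samples also call the tumours conventional, which goes against their titles. The titles were followed for the groups. Whether samples of a group stem from separate animals is not stated in the labels. The p-values therefore describe the spread among these samples, which may be technical in part.

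A synaptic vesicle is filled with transmitter by a transporter, docks at the active zone, and fuses when the SNARE proteins of vesicle and plasma membrane zip together after calcium binds a synaptotagmin. Complexins, Munc13 and RIM proteins and the large scaffolds Bassoon and Piccolo set when and where fusion occurs, and clathrin adaptors, dynamin, amphiphysin, endophilin and synaptojanin retrieve the membrane. In the cerebellum, granule neuron precursors divide before they become neurons that make glutamatergic synapses, and Patched tumours arise in this lineage. Snap25, a SNARE of the plasma membrane, and Syp, a protein of the vesicle itself, were detected above the filter on every array, with lowest signals of 666 and 95.6. All 9 genes of a granule neuron precursor list passed the filter too, with summed signals of 16345 to 22951.

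Upstream windows of 3 members are shown because each of these genes fell in CD15 positive cells of conventional tumours and its window holds a motif known from neuronal gene control. The windows are the 250 bases before the RefSeq start (build GRCm38.p6), read along the gene's strand, and 35 of the 43 members had such a window. Capitals mark the motifs. TGACGTCA is the cyclic AMP response element, which reads the same on both strands, and TTCAGCACC is the left part of RE1, the element bound by the repressor REST. The windows lie at chrX:20920919-20921168 on the minus strand for Syn1, chr4:85205206-85205455 on the plus strand for Sh3gl2 and chr7:45367020-45367269 on the minus strand for Ppfia3.
Syn1: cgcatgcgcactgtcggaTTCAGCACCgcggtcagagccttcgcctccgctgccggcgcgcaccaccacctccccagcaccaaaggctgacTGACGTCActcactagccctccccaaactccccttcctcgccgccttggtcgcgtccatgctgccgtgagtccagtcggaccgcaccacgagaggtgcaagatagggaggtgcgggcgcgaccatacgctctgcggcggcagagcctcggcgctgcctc
Sh3gl2: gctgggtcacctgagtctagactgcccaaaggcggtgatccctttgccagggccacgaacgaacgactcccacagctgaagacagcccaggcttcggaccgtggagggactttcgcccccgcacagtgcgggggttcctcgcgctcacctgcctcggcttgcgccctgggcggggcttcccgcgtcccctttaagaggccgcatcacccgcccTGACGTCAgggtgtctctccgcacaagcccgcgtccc
Ppfia3: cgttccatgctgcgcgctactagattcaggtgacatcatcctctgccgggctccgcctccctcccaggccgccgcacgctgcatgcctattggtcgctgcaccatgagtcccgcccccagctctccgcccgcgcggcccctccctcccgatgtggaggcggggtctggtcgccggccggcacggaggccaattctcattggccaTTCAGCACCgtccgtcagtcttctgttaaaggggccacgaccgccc
In Syn1 the left part of RE1 began 232 bases, and the cyclic AMP response element 159 bases before the start. In Sh3gl2 the response element began 37 bases, and in Ppfia3 the left part of RE1 began 46 bases before the start. Searched on both strands and counting each gene once, TGACGTCA occurred upstream of 2 of the 35 members, against 1.77% of all 27025 genes with a window. TTCAGCACC occurred in 2 of 35 members against 0.348% of all genes. GGACAG, the right part of RE1, occurred in 9 of 35 members against 21% of all genes. Among the 9 were Syt1, Syt11, Snap91 and Cadps, and it was not in the 3 windows printed. These matches describe the letters of a short window and do not show that a factor binds there.

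In conventional tumours the vesicle and release genes were lower in the CD15 positive than in the CD15 negative cells. Of the 38 tested, 16 fell and 1 rose at a limma adjusted p under 0.05, Benjamini-Hochberg over all genes. In the same comparison 5.09% of the 12367 genes fell and 3.05% rose, 8.13% in all. Because the members were chosen with earlier results of these data known, these shares are given as a description. The main fit did not use the pairs of arrays that share a title number. In the numbered arrays with the title number as a block, 19 members fell and 1 rose, against 6.33% and 3.65% of all genes. With the unnumbered arrays as a further pair, 21 fell and 1 rose, against 8.27% and 5.53% of all genes. Under quantile normalization 11 members fell and 1 rose, against 3.89% and 2.63% of all genes, and Syn2, Vamp2, Pclo, Erc2 and Ppfia3 lost their calls (adjusted p of 0.050 to 0.11). At an unadjusted p under 0.05 there were 26 members and 2746 genes in all. The members' median log2 fold change was -0.59, against -0.02 over all genes, and 34 of 38 were below 0. These comparisons give differences of log2(signal + 32), a scale that makes the change of dim genes smaller. In bulk samples, fewer cells of a type and less RNA per cell cannot be told apart.

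**Figure D1:**
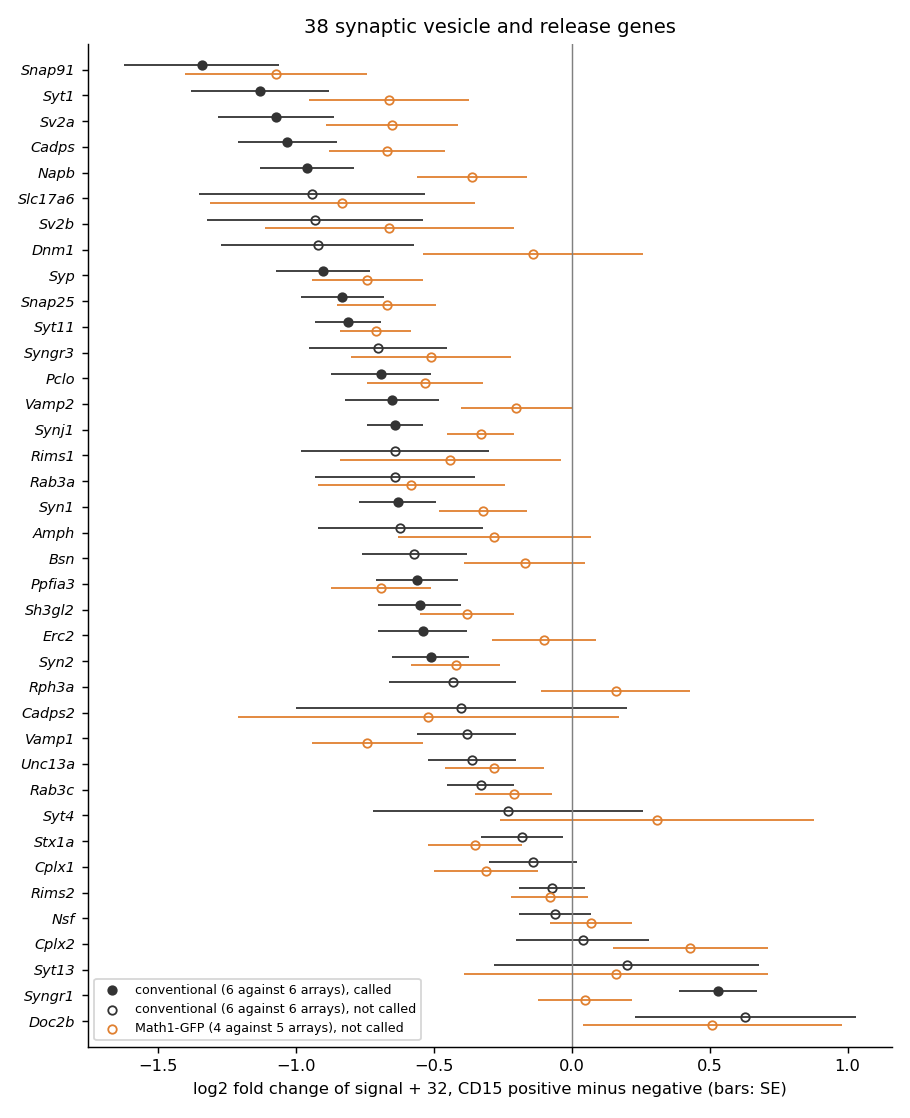
Log2 fold changes of signal + 32 (horizontal axis, CD15 positive minus CD15 negative) of the 38 tested genes with standard errors, in conventional (dark) and Math1-GFP tumours (orange), where filled points passed an adjusted p of 0.05. In conventional tumours 16 filled points lie to the left of 0 and only Syngr1 to the right, while no orange point is filled.

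The SNARE proteins and their recycling factors were divided. Snap25, the plasma membrane SNARE with a pair of SNARE motifs, had signals of 706 to 1286 (median 887) in CD15 positive and 1228 to 2355 (median 1617) in CD15 negative cells of conventional tumours. The ranges overlapped only through CD15 positive array 5, the brightest of its group, and Snap25 was lower in the CD15 positive cells in all 6 pairs, 5 of which share a title number while the other is that of the unnumbered arrays. The log2 difference of Snap25 was -0.83 ± 0.15 (SE, adjusted p = 0.0021). Its second probe set past the filter, 1447763_at, was dim, with a mean signal of 35.4. That probe set was at -0.05 (adjusted p = 0.9 with every probe set tested), so the fall rests on the brightest one. Vamp2, the vesicle SNARE of most forebrain synapses, had signals of 126 to 179 (median 138) against 202 to 324 (median 240), with no overlap, and fell by 0.65 ± 0.17 on the log2 scale (adjusted p = 0.022). Its paralogue Vamp1 was dim, at 1.38 to 46.8 (median 22.6) against 35.3 to 46.7 (median 37.5), and its change of -0.38 did not pass (adjusted p = 0.21). Napb, the brain form of the adaptor that brings the ATPase NSF to spent SNARE complexes, had signals of 48.3 to 138 (median 70.4) against 146 to 249 (median 181), again without overlap, and a log2 fold change of -0.96 ± 0.17 (adjusted p = 0.0014). All 5 of its probe sets past the filter fell when every probe set was tested on its own, by 0.57 to 0.96 on the log2 scale. Nsf itself was at -0.06 (adjusted p = 0.84) and Stx1a, the partner of Snap25 in the plasma membrane, at -0.18 (adjusted p = 0.53).

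Of the proteins on the vesicle itself, Syp, Sv2a, Syn1 and Syn2 fell. Syp, synaptophysin, had signals of 95.6 to 258 (median 173) in CD15 positive and 278 to 447 (median 324) in CD15 negative cells, and a log2 fold change of -0.90 ± 0.17 (adjusted p = 0.0027). Sv2a, a vesicle glycoprotein and the target of the drug levetiracetam, had 12.2 to 47.3 (median 31.9) against 71.7 to 139 (median 96.7), and fell by 1.07 ± 0.21 on the log2 scale (adjusted p = 0.0035). For both genes every CD15 positive array lay below every CD15 negative array. Syn1, a synapsin that tethers vesicles in the reserve pool, had 114 to 176 (median 129) against 159 to 306 (median 224), with a small overlap, and a log2 fold change of -0.63 ± 0.14 (adjusted p = 0.0064). Syn2 fell by 0.51 ± 0.14 (adjusted p = 0.026). Sv2b, the second SV2 protein measured, was more scattered, with signals of 153 to 730 (median 660) against 473 to 1320 (median 1044). Its difference was -0.93 ± 0.39 and did not pass (adjusted p = 0.16), although the CD15 positive cells had the lower value in all 6 pairs, the unnumbered arrays included. Sv2c was one of the genes below the filter, at 0.288 to 22.2 over all arrays.

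Syngr1, a synaptogyrin of the vesicle membrane, was the exception that rose, and its probe sets went in opposite directions. The brighter one, 1419289_a_at, had signals of 140 to 211 (median 173) in CD15 positive and 57.0 to 134 (median 118) in CD15 negative cells, with no overlap, and a log2 fold change of 0.53 ± 0.14 (adjusted p = 0.025). The other, 1434661_at, had 54.4 to 103 (median 76.2) against 90.8 to 196 (median 119), lower in the CD15 positive cells, with a log2 fold change of -0.51 ± 0.16 (adjusted p = 0.057 with every probe set tested). With the mean of both probe sets Syngr1 was at 0.01 (adjusted p = 0.96), and the call was also lost with the conventional groups fitted alone (adjusted p = 0.062). The rise therefore belongs to 1 probe set and cannot be given for the gene. Among 43 further probe sets of members, 3 others opposed the brightest in sign, all with differences near 0: 1436383_at of Cplx2 (-0.16), 1436470_at of Rims2 (0.02) and 1457205_at of Nsf (0.07). Syngr3 was at -0.70 ± 0.25 (adjusted p = 0.092), or -0.78 (adjusted p = 0.034) in the numbered arrays with the title number as a block. Its dimmer probe set, 1448216_at (mean signal 44.4), was at -0.05 (adjusted p = 0.95 with every probe set tested).

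**Figure D2:**
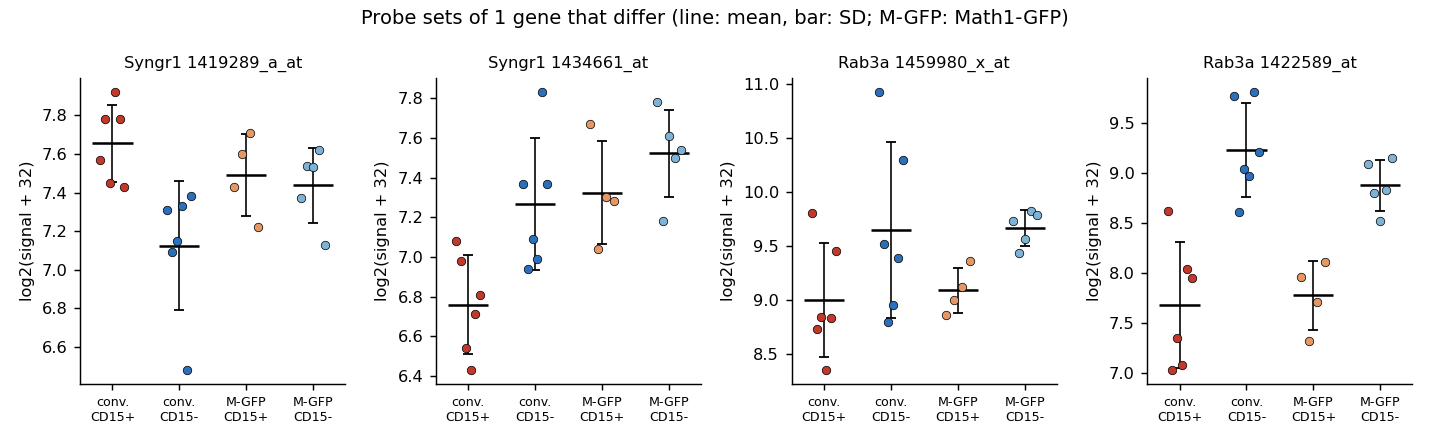
Log2(signal + 32) on each of the 21 arrays (vertical axis) for both probe sets of Syngr1 and of Rab3a, by group, with mean and SD. In conventional tumours the Syngr1 probe sets differ in opposite directions between CD15 positive (red) and CD15 negative (blue) cells, at 0.53 and -0.51, and the Rab3a probe sets in the same direction, at -0.64 and -1.56.

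Calcium sensors and Rab3 proteins were mixed. Syt11, a synaptotagmin that does not bind calcium, had the smallest p of all members: signals were 579 to 827 (median 720) in CD15 positive and 1010 to 1484 (median 1294) in CD15 negative cells. The groups did not overlap, and the log2 fold change was -0.81 ± 0.12 (adjusted p = 3.1e-04). Its brightest probe set is of the _x_at class, whose probes can bind other transcripts, but all 5 of its probe sets fell, by 0.66 to 0.81 on the log2 scale. Syt1, the calcium sensor of fast release, was dimmer, with 11.9 to 40.4 (median 32.9) against 48.3 to 133 (median 112), no overlap, and a fall of 1.13 ± 0.25 (adjusted p = 0.0067). With the mean of its probe sets, which include 2 dim ones, Syt1 was at -0.55 (adjusted p = 0.053). Syt4 (-0.23) and Syt13 (0.20), both synaptotagmins without calcium binding, did not pass (adjusted p = 0.84 and 0.87). Doc2b, a high-affinity calcium sensor, was at 0.63 ± 0.40 and Rph3a, rabphilin, at -0.43 ± 0.23, neither past the test (adjusted p = 0.39 and 0.27).

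Rab3a, the main Rab GTPase of synaptic vesicles, also depended on the probe set. Its brightest, 1459980_x_at, is of the same class, and had signals of 295 to 860 (median 425) in CD15 positive and 410 to 1903 (median 670) in CD15 negative cells, with wide overlap. The log2 fold change was -0.64 ± 0.29 (adjusted p = 0.19), and -0.55 (adjusted p = 0.019) in the numbered arrays with the title number as a block. The probe set 1422589_at had 98.9 to 362 against 359 to 863, overlapping through single arrays, and a log2 fold change of -1.56 ± 0.25 (adjusted p = 0.0010 with every probe set tested). Rab3c had 138 to 190 (median 181) against 185 to 303 (median 219) on its brightest probe set and was at -0.33 ± 0.12 (adjusted p = 0.097). With every probe set tested, its probe set 1435047_at passed at -0.60 (adjusted p = 0.021). In that fit 1432432_a_at (-0.16) and the dim 1432415_at (-0.37) did not pass (adjusted p = 0.62 and 0.29). Rab3b lay below the filter, at 2.96 to 51.0 over all arrays. Cplx1 and Cplx2, complexins that clamp the SNARE complex, were at -0.14 and 0.04 (adjusted p = 0.68 and 0.95).

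In the active zone and priming group, the scaffold Pclo (Piccolo) had signals of 61.2 to 113 (median 92.7) against 112 to 294 (median 144), with a narrow overlap, and fell by 0.69 ± 0.18 on the log2 scale (adjusted p = 0.021). Its large relative Bsn (Bassoon) was at -0.57 ± 0.19 and did not pass (adjusted p = 0.071). Cadps, a priming factor best known for dense-core vesicles, had 183 to 341 (median 244) against 400 to 700 (median 620), with no overlap, and a log2 fold change of -1.03 ± 0.18 (adjusted p = 0.0014). Its paralogue Cadps2 was at -0.40 ± 0.60 (adjusted p = 0.76). Erc2, an ELKS family scaffold, and Ppfia3, a liprin, fell by 0.54 ± 0.16 and 0.56 ± 0.15 (adjusted p = 0.040 and 0.027). Unc13a (-0.36), Rims1 (-0.64) and Rims2 (-0.07) did not pass (adjusted p = 0.18, 0.29 and 0.81). Unc13b was below the filter.

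Genes of endocytosis fell in 3 of 5 cases, and the 1 glutamate transporter tested did not pass. Synj1, the lipid phosphatase that uncoats clathrin vesicles, had signals of 182 to 261 (median 217) against 342 to 389 (median 349), with no overlap, and a log2 fold change of -0.64 ± 0.10 (adjusted p = 8.4e-04). Snap91, the clathrin assembly protein AP180 of neurons, showed the biggest difference of the 38 genes, -1.34 ± 0.28 (adjusted p = 0.0054). Its signals were 26.9 to 144 (median 91.5) against 123 to 435 (median 250), so the groups overlapped, but the CD15 positive array was lower in all 5 same-numbered pairs and in the unnumbered pair, with log2 differences of -1.95 to -1.01. Sh3gl2, endophilin, fell by 0.55 ± 0.15 (adjusted p = 0.026). Dnm1, the neuronal dynamin that cuts vesicles from the membrane, had 17.2 to 177 (median 30.1) against 74.3 to 280 (median 105). In both groups the unnumbered array and array 6 were the brightest for Dnm1. Its difference of -0.92 ± 0.35 did not pass (adjusted p = 0.11), but did in the numbered arrays with the title number as a block (-1.01, adjusted p = 0.0045). The second Dnm1 probe set past the filter, 1427754_a_at, was dim, with a mean signal of 32.2. That probe set was at -0.13 (adjusted p = 0.7 with every probe set tested). Amph, amphiphysin, was at -0.62 ± 0.30 (adjusted p = 0.24). Slc17a6, a vesicular glutamate transporter, had 285 to 1113 (median 702) against 484 to 2239 (median 1579) and was at -0.94 ± 0.41 (adjusted p = 0.18). Slc17a6 was lower in the CD15 positive cells in all 6 pairs, by log2 differences of -1.39 to -0.55, and at -1.02 (adjusted p = 0.098) in the numbered arrays with the title number as a block. The gene passed (-0.94, adjusted p = 0.0011) with a block in both models, an alternative chosen after seeing the data. That fit called 15.1% of all genes lower, against 5.09% in the main fit. Slc17a7, the transporter of mature granule cell synapses, lay below the filter, at 0.788 to 28.3 over all arrays.

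**Figure D3:**
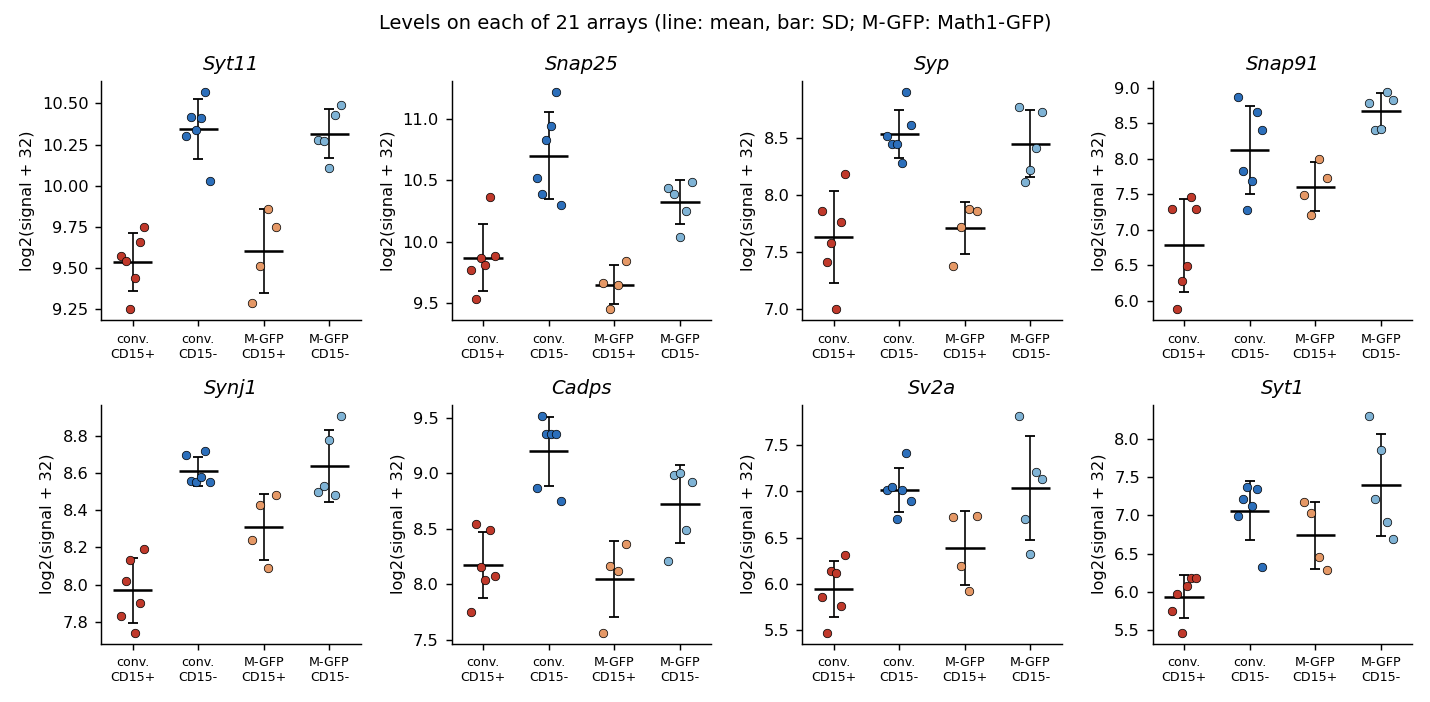
Log2(signal + 32) on each of the 21 arrays (vertical axis) for 8 genes that fell in CD15 positive cells of conventional tumours, by group, with mean and SD. The CD15 positive (red) and CD15 negative (blue) arrays of conventional tumours do not overlap for Syt11, Syp, Synj1, Cadps, Sv2a and Syt1, and overlap for Snap25 and Snap91.

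Across the 38 genes, 8 were lower in every CD15 positive array than in any CD15 negative array of conventional tumours, against 2.52% of all genes, and 1, Syngr1, was higher throughout, against 1.89%. The 8 were Syp, Syt1, Syt11, Vamp2, Sv2a, Synj1, Napb and Cadps. Leaving out 1 array at a time gave 10 to 18 called members, and 10 of the 17 calls were kept each time: Cadps, Napb, Snap25, Snap91, Sv2a, Syn1, Synj1, Syp, Syt1 and Syt11. These counts are given without the share of all genes called, so they are not read as a result about the members. The lowest count came without CD15 negative array 5, which held the highest value of 13 of the 38 members in its group; Erc2, Pclo, Ppfia3, Sh3gl2, Syn2, Syngr1 and Vamp2 were then lost. By whole-array correlation the conventional arrays form 2 sets, one of arrays 2 to 5 and one of array 6 and both unnumbered arrays. In the set of arrays 2 to 5 the median member was at -0.68 and 17 were called, 16 lower and 1 higher, against 4.72% and 2.51% of all genes. Among the other 4 arrays the median was -0.40, 34 of 38 were below 0, and limma called 0 members and 0% of all genes (11 members and 967 genes at an unadjusted p under 0.05).

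Other neuronal genes and genes of the cell cycle moved with this result. Of 12 neuronal genes with no synaptic member, 11 were tested and 9 fell, with a median of -1.13 and summed signals of 8193 to 16522 in CD15 positive against 19721 to 39144 in CD15 negative arrays. Of 16 genes of the G2 and M phases, 15 were tested and 14 rose, with a median of 0.80 and summed signals of 25273 to 32752 against 10217 to 20622. Of the microglia and macrophage list, 8 of 9 genes were tested and 0 were called by limma, but all 8 were above 0, with a median of 0.85 and summed signals of 575 to 11043 against 233 to 2741. All 7 mural and fibroblast genes were below 0 with 0 called, with a median of -0.59, equal to that of the members, and summed signals of 208 to 1543 against 253 to 3846. Of 7 tested astrocyte genes 6 were above 0 and 0 were called, with a median of 0.40. The part of these lists in the result was not tested.

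Of 100 other genes of vesicle release and recycling that are not members, 83 were tested. In conventional tumours 13 fell and 0 rose in CD15 positive cells, and their median was -0.24, nearer to 0 than that of the members. The 5 of smallest p were the presynaptic calcium channel subunit Cacna1b (-0.84, adjusted p = 0.0019), the synaptophysin relative Synpr (-1.53, adjusted p = 0.0023), the adhesion molecule Nlgn2 (-0.70, adjusted p = 0.0034), the third synapsin Syn3 (-1.25, adjusted p = 0.0039) and the adaptor Apba1 (-0.61, adjusted p = 0.0059).

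**Figure D4:**
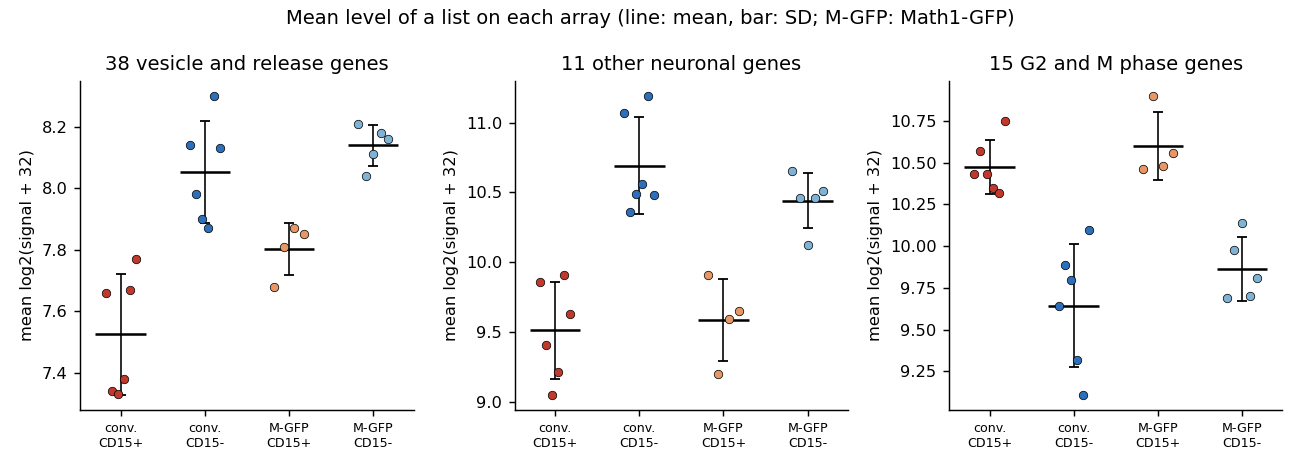
Mean log2(signal + 32) of the 38 vesicle and release genes, 11 other neuronal genes and 15 G2 and M phase genes on each of the 21 arrays, by group, with mean and SD. The vesicle and other neuronal genes are lower, and the G2 and M phase genes higher, on every CD15 positive array than on any CD15 negative array of the same tumour model.

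The mean level of the 38 genes on an array, taken as a description, separated the CD15 fractions in both models. It was 7.53 ± 0.19 (SD, n = 6) in CD15 positive and 8.05 ± 0.16 (SD, n = 6) in CD15 negative cells of conventional tumours, with ranges of 7.33 to 7.77 and 7.87 to 8.30. In Math1-GFP tumours it was 7.80 ± 0.08 (SD, n = 4) and 8.14 ± 0.07 (SD, n = 5), with ranges of 7.68 to 7.87 and 8.04 to 8.21.

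In Math1-GFP tumours no single member passed the test, although most were lower in the CD15 positive cells. Of 38 members limma called 0, against 0.0404% of all genes, with 14 members and 1073 genes at an unadjusted p under 0.05. The median was -0.36 against 0.00 over all genes, and 31 of 38 were below 0. There were 7 members whose groups did not overlap, all lower in CD15 positive cells, against 2.78% of all genes: Ppfia3, Rab3a, Snap25, Snap91, Synj1, Syp and Syt11. Syt11 came nearest, at -0.71 ± 0.13 (SE, adjusted p = 0.055). Its signals were 594, 695, 898 and 828 in the CD15 positive and 1208, 1201, 1070, 1344 and 1410 in the CD15 negative arrays. Ppfia3, the liprin, followed at -0.69 ± 0.18 (adjusted p = 0.14), with signals of 35.9, 36.6, 44.7 and 47.7 against 74.2, 66.7, 113, 92.6 and 87.3. For both genes the fractions did not overlap. Snap25 had signals of 777, 666, 771 and 882 against 1362, 1307, 1023, 1189 and 1404, a difference of -0.67 ± 0.18 (adjusted p = 0.15). Snap91 had 148, 115, 223 and 180 against 411, 307, 310, 460 and 422, and at -1.07 ± 0.33 (adjusted p = 0.20) showed the biggest difference, as in conventional tumours. Vamp1 was at -0.74 ± 0.20 (adjusted p = 0.17), with 9.00, 46.8, 18.1 and 7.66 in the CD15 positive and 44.3, 46.4, 73.2, 48.0 and 50.2 in the CD15 negative arrays. It overlapped through CD15 positive array 5. Of 7 tested astrocyte genes 6 were above 0 in this comparison and 0 were called, with a median of 1.11 and summed signals of 1608 to 4871 in CD15 positive against 790 to 1912 in CD15 negative arrays. The 4871 was of CD15 positive array 1, and the rest of that group had 1608 to 2055. All 11 other neuronal genes were below 0 (median -0.70, 0 called) and all 15 G2 and M phase genes above 0 (median 0.74, 1 called). Of 8 microglia and macrophage genes 7 were above 0 (median 0.46, 0 called), and of 7 mural and fibroblast genes 6 (median 0.31, 0 called). The part of these lists in the result was not tested.

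Consecutive Math1-GFP title numbers deviated together from their group means, with correlations of 0.59 to 0.68, against -0.36 to -0.01 for other pairs. The labels do not state such pairs. CD15 negative array 4 has no partner, so with these numbers as a block the CD15 difference of Math1-GFP tumours rests on the 4 assumed pairs alone. With these numbers and the conventional numbers together as a block, an alternative chosen after seeing the data, 12 of the 38 members were called in Math1-GFP tumours, all lower, against 4.08% of all genes. They were Snap25 (-0.66), Syp (-0.82), Syn2 (-0.39), Syt11 (-0.72), Stx1a (-0.37), Vamp1 (-0.76), Sv2b (-0.77), Rab3a (-0.63), Slc17a6 (-0.95), Snap91 (-1.14), Ppfia3 (-0.75) and Cadps (-0.60), with adjusted p from 0.0012 for Snap91 to 0.048 for Syn2. The same block called 29 members in conventional tumours, 27 lower and 2 higher, against 15.1% and 12.3% of all genes. With the Math1-GFP numbers alone in the block, 1 member was called, lower, against 0.097% of all genes.

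An interaction term compared the CD15 difference of the 2 models. Limma called 0 of 38 members and 0% of all genes, with 2 members and 279 genes at an unadjusted p under 0.05. Those 2 were Napb (0.60 ± 0.26, Math1-GFP minus conventional) and Syngr1 (-0.48 ± 0.22), followed by Synj1 (0.31 ± 0.16), each with an adjusted p of 1. These values are of the brightest probe sets. For Syngr1 the brightest was at 0.53 in conventional and 0.05 in Math1-GFP tumours, but 1434661_at at -0.51 and -0.20. For Napb the brightest was at -0.96 and -0.36, and the others past the filter at -0.90 to -0.57 and -0.63 to -0.28. Napb had signals of 104, 76.4, 85.4 and 113 in CD15 positive and 138, 111, 97.5, 145 and 166 in CD15 negative cells of Math1-GFP tumours, overlapping where the conventional groups did not.

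Between the models, 7 of the 38 members (18.4%) were called in the CD15 positive cells and 1 (2.63%) in the CD15 negative cells. Of all genes 23.1% and 18.4% were called, which is no less than among the members. These counts are therefore not read as a result about vesicle genes, and whether they differ was not tested. The comparisons use the same arrays as those above. Titles of the models end in different suffixes, so model and any array batch cannot be told apart. In CD15 positive cells 7 of 38 members were higher in Math1-GFP tumours and 0 lower, against 10.9% of all genes higher and 12.2% lower, 23.1% in all. They were Erc2 (0.66 ± 0.18, adjusted p = 0.011), Syn1 (0.46, adjusted p = 0.035), Synj1 (0.34, adjusted p = 0.038), Syt1 (0.80, adjusted p = 0.040), Cadps2 (1.94 ± 0.67, adjusted p = 0.041), Dnm1 (1.10 ± 0.39, adjusted p = 0.045) and Rph3a (0.71, adjusted p = 0.050). Under quantile normalization all 7 kept their direction and 0 of 38 were called, with adjusted p of 0.055 to 0.15 and 7.87% of all genes called higher, while the share of higher among all called genes went from 47.2% to 35.5%. Leaving out 1 array gave 2 to 11 calls, given without the share of all genes called and so not read as a result about the members. The count was 2 without conventional array 2, 3 or 4 or Math1-GFP array 5, 3 without Math1-GFP array 1, 7 or 9, 4 without conventional array 5 and 11 without conventional array 6. The groups of 2 members, Syt1 and Cadps2, did not overlap, against 6.26% of all genes higher without overlap.

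Cadps2, a relative of Cadps known for its place in cerebellar granule cells, had signals of 622, 434, 281 and 285 in CD15 positive and 1028, 508, 819, 411 and 327 in CD15 negative cells of Math1-GFP tumours. In conventional tumours it ranged from 2.65 to 260 (median 110) and from 16.2 to 565 (median 115). Conventional arrays 2 and 3 of both fractions were close to background, at 2.65 to 22.3. Cadps2 was the one member called between models in CD15 negative cells (2.06 ± 0.63, adjusted p = 0.027), against 7.91% of all genes called higher and 18.4% in either direction, and it lost its call when conventional array 2, 3 or 4 or Math1-GFP array 2 or 6 was left out (adjusted p up to 0.072). Next in order, without passing, were Cadps (-0.48, adjusted p = 0.083) and Syt13 (1.24, adjusted p = 0.090). Under quantile normalization 1 member was called higher and 2 lower in CD15 negative cells, against 6.75% and 12.7% of all genes, and the share of higher among all called genes went from 43.0% to 34.8%.

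Erc2 and Dnm1 varied among the conventional arrays. Erc2 signals in conventional CD15 positive cells were 88.9 on the unnumbered array, 44.0, 36.2, 44.0 and 86.4 on arrays 2 to 5 and 107 on array 6, against 131, 119, 124 and 106 in Math1-GFP tumours. Erc2 kept its call when any single array was left out (adjusted p up to 0.034). Dnm1 signals were 139 on the unnumbered array, 21.3, 17.2, 35.3 and 25.0 on arrays 2 to 5 and 177 on array 6, against 122, 99.2, 186 and 207 in Math1-GFP tumours. Arrays 2 to 5 were low and the others lay within the Math1-GFP range, and with the unnumbered arrays and number 6 alone the Dnm1 difference between models was -0.07. The dim second probe set of Dnm1, 1427754_a_at, was at 0.43 between models in CD15 positive cells (adjusted p = 0.056 with every probe set tested). Rph3a, which binds Rab3 proteins, ranged from 27.0 to 107 (median 39.7) in conventional and 39.0 to 142 (median 109) in Math1-GFP CD15 positive cells.

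Syt13, chosen for description after its values were seen, varied by array more than by CD15 fraction. In conventional tumours its signals were 132 to 1220 in CD15 positive and 80.9 to 1166 in CD15 negative cells, with array 6 the highest and array 4 the lowest of both groups. In Math1-GFP tumours they were 636 to 1116 and 512 to 1040. Between models its brightest probe set was at 1.20 ± 0.53 (adjusted p = 0.11) in CD15 positive and 1.24 ± 0.50 (adjusted p = 0.090) in CD15 negative cells, and its second, 1451045_at, at 1.53 (adjusted p = 0.012) and 1.85 (adjusted p = 0.0021) with every probe set tested.

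**Figure D5:**
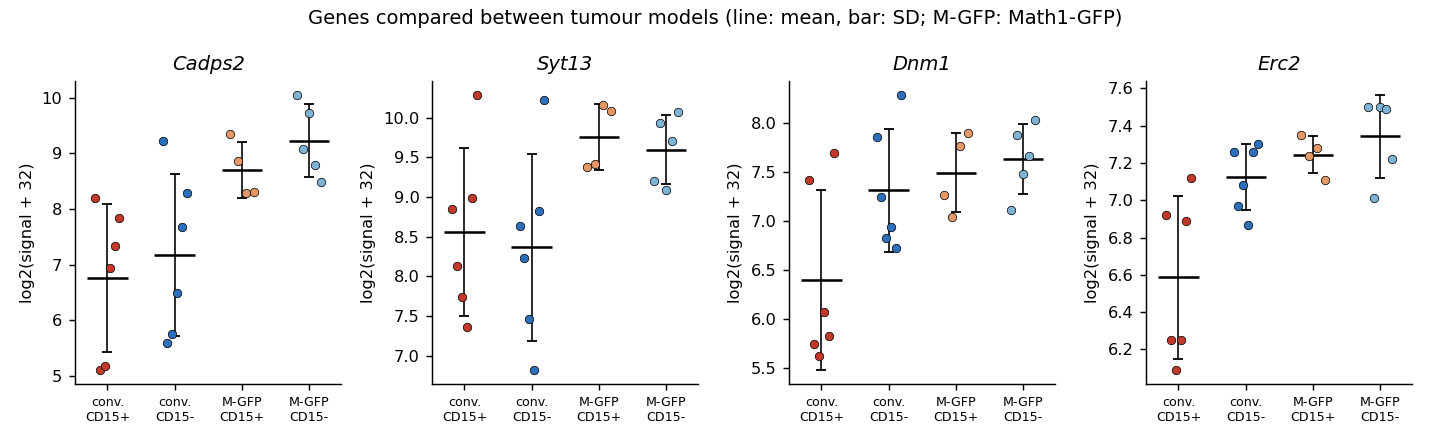
Log2(signal + 32) on each of the 21 arrays (vertical axis) for Cadps2, Syt13, Dnm1 and Erc2, by group, with mean and SD. Conventional arrays are widely spread for the first 3 genes, and Cadps2 in CD15 positive cells is higher on each Math1-GFP array (281 to 622) than on any conventional array (2.65 to 260).

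Probe sets of a gene also disagreed in size or sign between models. For Syt11 in CD15 negative cells, 1449264_at was at 0.70 (adjusted p = 0.0019 with every probe set tested). In the same fit 1455176_a_at was at -0.52 (adjusted p = 0.0026) and 1429315_at at -0.39 (adjusted p = 0.022). The brightest, 1456464_x_at, was at -0.03 and 1429314_at at 0.04. The direction of Syt11 between models is therefore unsettled. For Sh3gl2 in CD15 positive cells the 3 probe sets gave 0.39, 0.72 and 1.17 (adjusted p = 0.090, 0.0028 and 1.2e-04 with every probe set tested), the brightest one giving the smallest difference. For Cplx1 they gave -0.20, -0.04 and 0.89 (adjusted p = 0.45, 0.91 and 0.0017), and in CD15 negative cells -0.03, 0.18 and 1.04. In CD15 negative cells the Sh3gl2 probe sets gave 0.22, 0.50 and 1.10, so all 3 were higher in Math1-GFP cells of both fractions and differed in size. With the mean of its probe sets Sh3gl2 passed in CD15 positive (0.76, adjusted p = 0.0012) and CD15 negative cells (0.61, adjusted p = 0.0045). For Cplx1 the probe sets leave the direction between models unsettled. All 3 Sh3gl2 probe sets were below 0 in the CD15 comparison of conventional tumours (-0.55, -0.62 and -0.42).

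Among the 83 tested related genes, 17 were higher and 6 lower in Math1-GFP than in conventional CD15 positive cells, where 10.9% of all genes were higher and 12.2% lower. With so many genes called, these counts are not read as a result about vesicle genes. The 5 of smallest p among the higher were the scaffold Lin7c (0.89, adjusted p = 1.5e-04), clathrin heavy chain Cltc (0.63, adjusted p = 4.2e-04), Erc1 (0.82, adjusted p = 0.0036), Apba2 (0.70, adjusted p = 0.0071) and the proton pump subunit Atp6v0a1 (0.67, adjusted p = 0.0078). The lower were led by the clathrin adaptor subunit Ap2s1 (-0.69, adjusted p = 6.5e-05) and Snap47 (-0.72, adjusted p = 0.0020). In CD15 negative cells 8 were higher and 7 lower, against 7.91% and 10.5% of all genes. In the CD15 comparison of Math1-GFP tumours limma called 0 of the 83, with a median of -0.10. Markers of other cells differed between models as well: 4 of 8 tested microglia and macrophage genes were lower in Math1-GFP CD15 positive cells, with summed signals of 278 to 1325 against 575 to 11043, and 3 of 7 mural and fibroblast genes were lower in Math1-GFP CD15 negative cells, with summed signals of 215 to 362 against 253 to 3846. Their part in the member differences was not tested.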

How the data were processed

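Affymetrix Mouse Genome 430 2.0 arrays had measured RNA of 21 sorted tumour cell samples. The authors deposited probe set intensities on a linear scale, and the steps behind them are not given in the sources used here. Each array had a mean of 150.0 once the top and bottom 2% of values were trimmed. No depth applies to arrays; their number limits the precision.

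Intensities were used as log2(signal + 32). Control probe sets (64) and probe sets with several gene symbols (932, including 1 with a member) or none (9211) were left out. Probe sets below the 40th percentile of mean log2 value (a signal of about 15.5) were left out, and the brightest of each gene was kept. A model of 4 group means (17 residual degrees of freedom) was fitted to all 12367 genes with limma 3.58.1 in R 4.3.3, with two-sided eBayes p-values and Benjamini-Hochberg adjustment over all genes. On simulated data for the conventional CD15 comparison over 12367 genes, it called 32 of 100 genes changed by 0.5 log2, 80 of 100 changed by 1 log2 and 2 of 12167 unchanged genes.

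Members and lists were chosen with earlier results of these data known. Array values are given for the 12 members of smallest p in the conventional CD15 comparison, members called elsewhere or among the 3 of smallest p there, Syngr1 for its direction, and the Vamp, Rab3, Sv2 and Slc17a paralogues. Of related genes, up to 5 per direction are named. Same-numbered conventional arrays deviated from their group means together (r of 0.58 to 0.76, at most 0.48 for different numbers), so their title numbers were read as pairs. The main model did not use these pairs, which entered only as a block in alternatives. Its standard errors and adjusted p are therefore those of an unpaired comparison. The unnumbered arrays (r of 0.72) are called replicate 1. Upstream windows came from the RefSeq promoter table (GRCm38.p6). Alternatives covered normalization, pseudocount, filter, probe set choice, samples fitted, spread, array weights, array sets, replicate blocks and leaving out each array.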

Additional observations from a re-analysis of the deposited data

Results flagged for a closer look

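In 5 of 100 groups tested (24 members and the mean level of all 38), 1 array stood apart from the rest of its group on the log2 scale by a wide gap relative to the group's range; chance gives such a gap in about 1 in 20 groups. Syt1 was lowest on CD15 negative array 6 of the conventional tumours, at a signal of 48.3 against 95.1 for the next array. Syngr1 was lowest on conventional CD15 negative array 5, at 57.0 against 104. Rab3c was lowest on conventional CD15 positive array 4, at 138 against 174. Rph3a was highest on conventional CD15 positive array 6, at 107 against 40.6. Vamp1 was highest on Math1-GFP CD15 negative array 6, at 73.2 against 50.2.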

How the results depend on the processing

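In conventional tumours the count of called members, 17, went to 12 under quantile normalization or with the groups alone, 20 in the numbered arrays with the replicate block, 29 with a block in both models and 0 with the unnumbered arrays and number 6 alone; leaving out 1 array gave 10 to 18. In Math1-GFP tumours the count of 0 became 1 under quantile normalization, the larger pseudocount, the filter at percentile 60, trend and robust estimation or consecutive numbers as a block, 4 with array weights and 12 with a block in both models; leaving out 1 array gave 0 to 1. The interaction stayed at 0. Between models in CD15 positive cells the 7 calls became 0 under quantile normalization or with the unnumbered arrays and number 6 alone, 4 with the larger pseudocount, without a filter or without Math1-GFP arrays 1 and 2, 2 with the groups alone, and 11 with array weights or conventional arrays 2 to 5 alone; leaving out 1 array gave 2 to 11. In CD15 negative cells the 1 call became 0 with a pseudocount of 1 or without Math1-GFP arrays 1 and 2, 2 without _x_at and _s_at probe sets, 3 under quantile normalization, 4 with mean probe sets, 6 with array weights and 9 with arrays 2 to 5 alone; leaving out 1 array gave 0 to 4. With conventional arrays 2 to 5 alone, 10 members were higher and 1 lower between models in CD15 positive cells, against 14.7% and 16.3% of all genes. In CD15 negative cells 5 were higher and 4 lower, against 11% and 16.2% of all genes. The share of all genes called moved as well, so counts given here without it are not read as a result about the members. The cause of these moves was not tested. The difference in the mean level of the members, -0.53, was -0.69 with a pseudocount of 1 and -0.36 with the larger pseudocount. Of the members called or named in a comparison, Dnm1, called between models in CD15 positive cells, reversed its sign (-0.07 with the unnumbered arrays and number 6 alone), and the other reversals were of members that had not passed. Among members neither called nor of the 3 smallest p, 24 of 31 between models in CD15 positive cells, 25 of 35 in CD15 negative cells and 18 of 35 in the interaction changed sign under at least 1 alternative. In conventional tumours Syt4 was at 0.01 with array weights. Cplx2 was at -0.07 with array weights, -0.03 in the numbered arrays with and without the replicate block and -0.05 with arrays 2 to 5 alone. Leaving out 1 array gave ranges of -0.07 to 0.12 for Cplx2, -0.50 to 0.05 for Syt4, -0.15 to 0.57 for Syt13 and -0.72 to 0.01 for Cadps2. In Math1-GFP tumours Syngr1 was at -0.07 with mean probe sets, and leaving out 1 array gave -0.02 to 0.15 for Syngr1, -0.05 to 0.64 for Syt4, -0.15 to 0.04 for Rims2, -0.27 to 0.01 for Dnm1, -0.05 to 0.27 for Nsf and -0.01 to 0.92 for Doc2b.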
